A study of Homo sapiens with 9 samples.

Results

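Keratins and claudins are the building materials of the epithelial cytoskeleton and the epithelial barrier. The genes described here are the protein-coding genes whose symbol is KRT or CLDN followed by a number, 63 of the 36018 genes in the count files (43 keratins and 20 claudins). Of these, 30 passed the filter on low counts (17 keratins and 13 claudins), 24 of them with a group mean of at least 1 CPM (read counts scaled to a common depth with each library's effective size) in their highest group. The other 33 did not pass, and 24 of those had fewer than 10 counts over all libraries.

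Keratins are the intermediate filament proteins of epithelia. A type I (acidic) keratin pairs with a type II (basic) keratin, and neither forms filaments alone. Gut and other simple epithelia use KRT8 with KRT18, KRT19 and KRT20, stratified epithelia use pairs of their own, and hair keratins build the hair shaft. Claudins are 4-pass membrane proteins that form the strands of tight junctions between cells. Some seal the space between cells and others form pores for ions. Inside the cell they bind scaffold proteins such as ZO-1, the product of TJP1.

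RNA was sequenced from cells labelled HCT-15, an established human colorectal adenocarcinoma line, in 9 libraries, all labelled with a wild-type genotype. The 3 CoCl2-tolerant libraries came from a derivative grown in rising amounts of cobalt chloride, a salt that mimics hypoxia, and the 3 low-glucose-tolerant libraries from a derivative adapted to scarce glucose in the same stepwise way. The 3 control libraries came from untreated cells, and all cells were kept in RPMI medium with fetal bovine serum. The comparisons ask how each tolerant line differs from the untreated line and from the other. Each tolerance is represented by 1 derived line, so a difference cannot be told apart from other changes in that line's culture. Nothing in the labels says that a group's libraries are separate cultures, so each p-value reflects variation among sequenced libraries alone, some or all of it possibly technical.

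Libraries held 25178615 to 32674687 counts, at which 3 counts correspond to 0.0882 to 0.120 CPM. The libraries of a group differed by more than counting error, the chi-squared statistic over its degrees of freedom running 8.42 to 33.0 for pairs of CoCl2-tolerant, 27.5 to 74.9 for pairs of low-glucose-tolerant and 2.31 to 6.96 for pairs of control libraries. CoCl2-tolerant replicate 1 and low-glucose-tolerant replicate 2 each stood apart from the other libraries of their group. The colorectal label was set against 12 intestinal markers, of which 10 were in the files and 8 of these lay under 1 CPM in every group. KRT20, the keratin that marks intestinal epithelium, had 2 counts over all 9 libraries. EPCAM, a pan-epithelial surface protein, was present at 21.8 ± 1.99 CPM in CoCl2-tolerant, 55.7 ± 14.4 in low-glucose-tolerant and 54.7 ± 3.10 in control libraries (mean ± SD, n = 3 each, as in all such values). The 12 listed fibroblast and mesenchymal markers summed to 11340 to 14610 CPM in CoCl2-tolerant, 3570 to 6468 in low-glucose-tolerant and 10620 to 10850 in control libraries. Most of that sum was fibronectin, FN1. The collagen gene COL1A1 was at 1855 CPM in control libraries, and THY1, given below, was present too. Of the 12 markers, 5 lay under 1 CPM in every group, among them the fibroblast genes LUM and FAP, under 0.1 CPM in every group mean. In bulk RNA, fewer cells of a kind and less RNA per cell cannot be told apart.

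Neighbouring claudin genes take part in the results below, so the 250 bases before the RefSeq start of 4 of them are shown (GRCh38.p14, each 5′ to 3′ on the gene's own strand). CLDN1 lies on the minus strand at chr3:190322447-190322696 and CLDN16 on the plus strand at chr3:190387913-190388162. CLDN3 lies on the minus strand at chr7:73770271-73770520 and CLDN4 on the plus strand at chr7:73830746-73830995. Capitals mark, on either strand, the TATA box TATAAA, the GC box GGGCGG, the hypoxia element core ACGTG and the E-box CACCTG that ZEB and SNAI repressors bind.
CLDN1: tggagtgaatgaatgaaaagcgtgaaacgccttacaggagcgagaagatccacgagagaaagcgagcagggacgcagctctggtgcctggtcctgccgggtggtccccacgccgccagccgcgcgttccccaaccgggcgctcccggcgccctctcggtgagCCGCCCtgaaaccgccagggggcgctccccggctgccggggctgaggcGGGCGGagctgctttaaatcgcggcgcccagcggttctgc
CLDN16: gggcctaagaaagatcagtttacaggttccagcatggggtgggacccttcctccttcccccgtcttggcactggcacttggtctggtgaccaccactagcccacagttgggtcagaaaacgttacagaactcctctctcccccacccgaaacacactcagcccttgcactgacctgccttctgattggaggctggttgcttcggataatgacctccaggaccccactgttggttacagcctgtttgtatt
CLDN3: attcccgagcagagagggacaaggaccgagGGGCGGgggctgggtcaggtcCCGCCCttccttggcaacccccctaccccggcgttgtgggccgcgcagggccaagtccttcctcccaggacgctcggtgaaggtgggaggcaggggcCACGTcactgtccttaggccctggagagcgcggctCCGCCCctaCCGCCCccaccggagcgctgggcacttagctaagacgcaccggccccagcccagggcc
CLDN4: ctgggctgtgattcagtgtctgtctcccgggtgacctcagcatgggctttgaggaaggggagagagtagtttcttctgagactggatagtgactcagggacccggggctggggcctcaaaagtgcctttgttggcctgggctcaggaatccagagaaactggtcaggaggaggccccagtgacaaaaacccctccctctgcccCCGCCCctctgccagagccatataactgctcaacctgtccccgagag
The CLDN16 and CLDN4 windows lie inside their annotated genes, at starts 291 and 133 bases from those of their principal transcripts. With the 50 bases after the start included, CLDN1 held 2 GC boxes, CLDN3 held 6, CLDN4 held 1 and CLDN16 had none. CLDN3 alone of the 4 held the hypoxia element core, and CLDN3 and CLDN16 each held 1 E-box, both after the start and so outside the stretch shown. RefSeq promoters of 300 bases were at hand for 41 of the 63 genes and for 20 of the 30 that passed the filter. GC boxes stood in 6 of these 20, against 45.0% of all 35116 promoters, and TATA boxes in 4 (11.5% of all). The hypoxia element core stood in 3 (21.4% of all), the E-box in 4 (20.6%), the AP-1 site TGANTCA in 3 (7.71%) and the grainyhead-like site AACCNGNTT in 1 (2.11%). The windows of KRT8 and KRT4, counted among the 20, lie 19851 and 435 bases from the start of their principal transcripts and held none of these motifs. A match is a run of letters in such a window, and binding was not measured.

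Of the 30 tested genes, 10 rose and 9 fell in the CoCl2-tolerant line against control, and 11 did not pass edgeR's quasi-likelihood test at a Benjamini-Hochberg adjusted p under 0.05. Over all 17902 genes tested, 36.1% were called in that comparison, 17.9% higher and 18.2% lower. In the low-glucose-tolerant line 19 rose, 6 fell and 5 did not pass, where 69.2% of all genes were called, 34.6% higher and 34.6% lower. The filter keeps a gene that reaches its level in 3 libraries. A gene can thus be tested through 1 group alone, where it is high, and the same holds for the shares of all genes. With only the 2 groups fitted, 8 of 25 members rose and 8 fell in the CoCl2-tolerant line (4308 and 4244 of 17314 genes). In the low-glucose-tolerant line 19 of 26 rose and 4 fell (6016 and 6011 of 17339 genes). With KRT3, which had no counts in 1 group, set at its bound or not, the median log2 fold change of the 30 genes was -0.10 in the CoCl2-tolerant line (0.014 over all genes) and 0.88 in the low-glucose-tolerant line (-0.008 over all genes). These medians depend on the filter. With all genes kept, the median of the 63 members was 0.162 in the CoCl2-tolerant line (0 over all genes). It was 0.14 in the low-glucose-tolerant line (-0.146 over all genes). With single libraries left out, the CoCl2-tolerant median ran from -0.137 to 0.095 and the low-glucose-tolerant median from 0.674 to 0.893. Without low-glucose-tolerant replicate 2, 26 of 31 tested members changed in that line, 19 higher and 7 lower. Without CoCl2-tolerant replicate 1, 20 of 31 changed in the CoCl2-tolerant line, 10 higher and 10 lower. Both comparisons use the same control libraries. Side by side, 8 genes rose in both lines (CLDN1, CLDN9, CLDN15, KRT10, KRT15, KRT19, KRT32 and KRT34), 3 fell in both (CLDN11, KRT4 and KRT81) and 5 fell in the CoCl2-tolerant and rose in the low-glucose-tolerant line (CLDN3, CLDN7, CLDN16, KRT8 and KRT86). The shares of all genes with these joint patterns were not counted, so whether 8, 3 and 5 are unusual is not known.

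**Figure D1:**
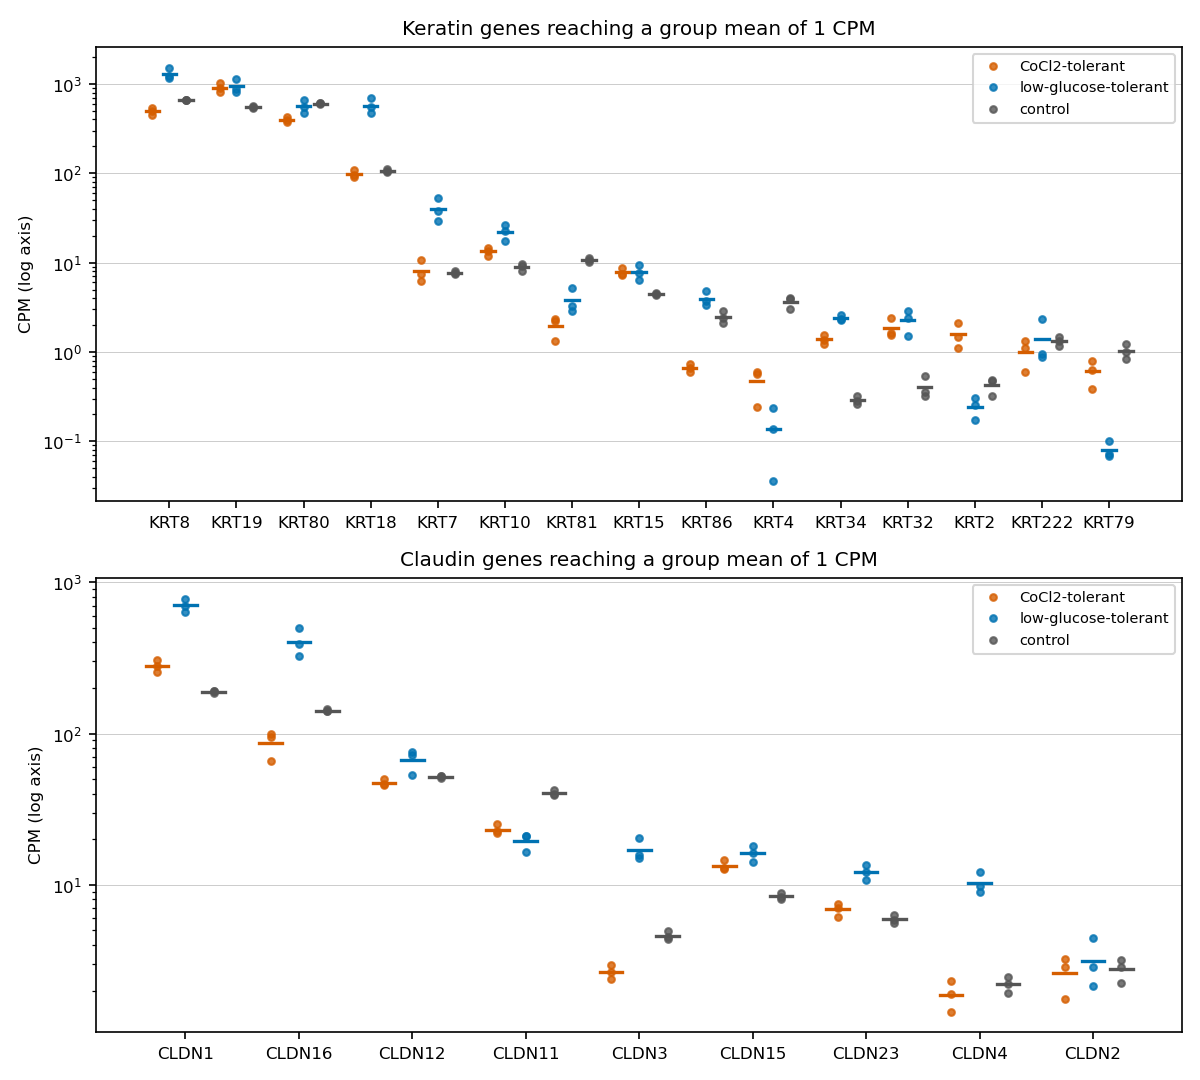
CPM of the 15 keratin and 9 claudin genes that reach a group mean of 1 CPM, on log axes, with 1 point per library and a bar at the mean of 3 libraries. KRT18, KRT7, CLDN1, CLDN16, CLDN3 and CLDN4 stand highest in all 3 low-glucose-tolerant libraries, and KRT4 and CLDN11 stand highest in all 3 control libraries.

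The simple epithelial keratins differed between the lines, with 3 of the 4 tested lower in the CoCl2-tolerant than in the low-glucose-tolerant line (32.0% of all genes). In the low-glucose-tolerant line all 4 that were tested rose, against 34.6% of all genes. In the CoCl2-tolerant line KRT19 rose, KRT8 fell, and KRT18 and KRT7 did not pass the test, where 17.9% of all genes rose and 18.2% fell. KRT18, the type I partner of KRT8 (ENSG00000111057, chr12:52948871-52952901, GRCh38), had 109, 90.8 and 96.2 CPM in CoCl2-tolerant, 551, 473 and 690.5 CPM in low-glucose-tolerant, and 107, 103 and 110.3 CPM in control libraries. Every low-glucose-tolerant library lay far above the other 6, and the CoCl2-tolerant and control libraries overlapped. The log2 fold change was -0.12 ± 0.13 in the CoCl2-tolerant line (edgeR adjusted p = 0.511) and 2.42 ± 0.14 in the low-glucose-tolerant line (edgeR adjusted p = 2.14e-09). Without low-glucose-tolerant replicate 2, the lowest of its group, KRT18 changed by 2.54 on the log2 scale.

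KRT8, the type II keratin of simple epithelia and the usual partner of KRT18 (ENSG00000170421, chr12:52897187-52949954), had 535, 449 and 496 CPM in CoCl2-tolerant, 1211, 1157 and 1521 CPM in low-glucose-tolerant, and 661, 656 and 655 CPM in control libraries. The 3 groups did not overlap, with the low-glucose-tolerant libraries highest and the CoCl2-tolerant libraries lowest. KRT8 rose in the low-glucose-tolerant line by 0.98 ± 0.12 on the log2 scale (edgeR adjusted p = 4.98e-06). In the CoCl2-tolerant line it fell by 0.41 on the log2 scale, with an SE of 0.12 (edgeR adjusted p = 0.0148). That call is lost without control replicate 1 (KRT8 adjusted p = 0.0526, edgeR) and without CoCl2-tolerant replicate 2 (KRT8 adjusted p = 0.0661, edgeR).

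KRT19, a type I keratin of simple and ductal epithelia (ENSG00000171345, chr17:41523617-41528308), had 1012, 818 and 903 CPM in CoCl2-tolerant, 875, 823 and 1132 CPM in low-glucose-tolerant, and 550.1, 538 and 562 CPM in control libraries. All 6 libraries of the tolerant lines lay above all 3 control libraries, and the tolerant lines overlapped each other. Its rise was 0.73 ± 0.13 on the log2 scale in the CoCl2-tolerant line (edgeR adjusted p = 6.22e-04) and 0.78 ± 0.13 in the low-glucose-tolerant line (edgeR adjusted p = 8.76e-05). KRT7, a type II keratin of ducts and other simple epithelia (ENSG00000135480, chr12:52232520-52252186), had 10.8, 6.27 and 7.38 CPM in CoCl2-tolerant, 37.9, 29.2 and 53.3 CPM in low-glucose-tolerant, and 7.38, 8.08 and 7.69 CPM in control libraries. It rose in the low-glucose-tolerant line by 2.38 ± 0.22 on the log2 scale (edgeR adjusted p = 2.61e-07), with no library as low as any of the other groups. The CoCl2-tolerant line spanned the control values (log2 fold change 0.07 ± 0.22, edgeR adjusted p = 0.826), with replicate 1 highest. Without that library the KRT7 log2 fold change was -0.17 (KRT7 edgeR adjusted p = 0.586).

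KRT8 and KRT18 have many processed pseudogenes, and reads shared with them cannot be assigned with certainty. Of the 50-base stretches of the longest KRT18 transcript, 31.8% also occur in transcripts of other keratin genes and pseudogenes, and for KRT8 the share is 32.6%. The 25 KRT8 pseudogenes in the files together held 0.721 to 1.99% as many counts as KRT8, and the 38 KRT18 pseudogenes 0.105 to 1.57% as many as KRT18. KRT8 and KRT18 lie head to head and their annotated exons overlap on opposite strands over 16.3% of the KRT18 exon bases. Whether the counting used strand is not given in the sources used here, so reads in that overlap cannot be told apart.

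Since type I and type II keratins assemble in pairs, their totals were set side by side per kilobase of transcript, which allows levels of different genes to be added. The type I sum over the type II sum was 2.004, 1.902 and 1.98 in CoCl2-tolerant, 1.28, 1.14 and 1.31 in low-glucose-tolerant, and 0.915, 0.890 and 0.934 in control libraries. No library of 1 group lay within the range of another. In CPM per kilobase, the type I sum was 732 ± 76.9 in CoCl2-tolerant, 1077 ± 195 in low-glucose-tolerant and 473 ± 11.1 in control libraries. The type II sum was 373 ± 29.99 in CoCl2-tolerant, 862 ± 109 in low-glucose-tolerant and 519 ± 1.15 in control libraries. In the CoCl2-tolerant line the type I total was thus above and the type II total below control, and in the low-glucose-tolerant line both were above it. With the union of annotated exons as gene length, a setting added after the data were seen, the ratio was 2.56 ± 0.116 in CoCl2-tolerant, 1.79 ± 0.224 in low-glucose-tolerant and 1.12 ± 0.0272 in control libraries. The groups kept that order, but with this length the type I sum lay above the type II sum in control libraries too.

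The same genes were also counted by type. Of the 7 type I keratins tested, 5 rose and none fell in the CoCl2-tolerant line, and 7 rose in the low-glucose-tolerant line. Of the 9 type II keratins tested, 1 rose and 5 fell in the CoCl2-tolerant line, and 3 rose and 4 fell in the low-glucose-tolerant line. The type II total of the low-glucose-tolerant line was above control while the median log2 fold change of type II keratins was -0.80. Over all genes, 17.9% were higher and 18.2% lower in the CoCl2-tolerant line, and 34.6% were higher and 34.6% lower in the low-glucose-tolerant line. The difference between the types was not tested. KRT222, a short keratin on chromosome 17, was not assigned a type here and was counted in neither. It passed the test in neither line (log2 fold change -0.37 in the CoCl2-tolerant and 0.07 in the low-glucose-tolerant line). The count for each type covers genes that passed the filter, 7 of 22 and 9 of 20 in the files.

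**Figure D2:**
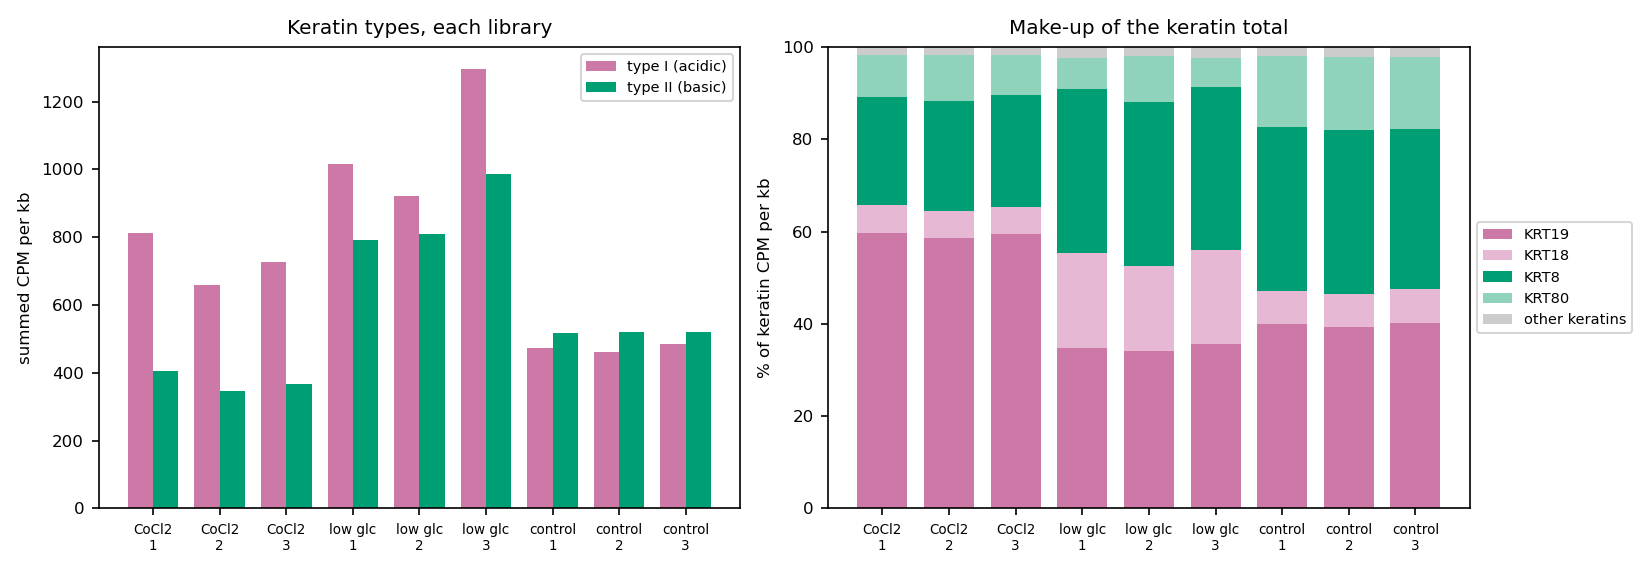
Left, summed CPM per kilobase of type I and type II keratins in each of the 9 libraries, and right, the share of the keratin total per kilobase held by each of 4 genes (bars are single libraries). With the principal transcript length drawn here, type I exceeds type II in every library of the tolerant lines and lies below it in the 3 control libraries, where it lies above it with the union of exons as length (ratio 1.12). KRT18 takes 18.3 to 20.5% of the total in low-glucose-tolerant libraries.

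Just 4 genes made up nearly all keratin mRNA per kilobase. KRT8, KRT18, KRT19 and KRT80 together held 98.3 ± 0.0405% in CoCl2-tolerant, 97.8 ± 0.275% in low-glucose-tolerant and 97.9 ± 0.106% in control libraries. KRT19 held 59.3 ± 0.676% in CoCl2-tolerant, 34.9 ± 0.719% in low-glucose-tolerant and 39.9 ± 0.427% in control libraries. The share of KRT18 was 5.98 ± 0.0734% in CoCl2-tolerant, 19.7 ± 1.18% in low-glucose-tolerant and 7.23 ± 0.165% in control libraries. Per kilobase KRT18 was 0.252 ± 0.00611 of KRT8 in CoCl2-tolerant, 0.554 ± 0.0335 in low-glucose-tolerant and 0.205 ± 0.00704 in control libraries. With the principal transcript length, the order of levels was KRT19, KRT8, KRT80 and KRT18 in CoCl2-tolerant and in control libraries, each step beyond the spread. In low-glucose-tolerant libraries KRT8 (689 ± 104 CPM per kilobase) and KRT19 (678 ± 119) lay within each other's spread, followed by KRT18 (383 ± 73.9) and KRT80 (146 ± 25.6). The order depends on the length used. With the union of exons KRT8 came after KRT80 in CoCl2-tolerant libraries (71.7 ± 6.25 against 91.3 ± 6.93 CPM per kilobase) and in control libraries (95.5 ± 0.471 against 138 ± 1.92), and in low-glucose-tolerant libraries KRT19 (404 ± 70.8) stood above KRT8 (188 ± 28.5). With that length KRT19 held 65.2 ± 0.937% of the keratin total in CoCl2-tolerant, 43.4 ± 1.49% in low-glucose-tolerant and 45.4 ± 0.468% in control libraries, and KRT18 held 5.12 ± 0.0415% in CoCl2-tolerant, 19.1 ± 1.41% in low-glucose-tolerant and 6.41 ± 0.143% in control libraries.

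Other epithelial keratins followed no common direction, with 3 of 8 higher and 2 lower in the CoCl2-tolerant line, and 2 higher and 3 lower in the low-glucose-tolerant line. Of all genes, 17.9% were higher and 18.2% lower in the CoCl2-tolerant line, and 34.6% higher and 34.6% lower in the low-glucose-tolerant line. KRT80, a type II keratin found near desmosomal plaques in differentiated epithelia (ENSG00000167767, chr12:52168996-52192000), had 430.2, 391 and 371 CPM in CoCl2-tolerant, 471, 668 and 555 CPM in low-glucose-tolerant, and 591, 606 and 605 CPM in control libraries. The CoCl2-tolerant libraries lay below all others, and the low-glucose-tolerant libraries fell on both sides of control. KRT80 fell by 0.60 on the log2 scale in the CoCl2-tolerant line (SE 0.12, edgeR adjusted p = 0.00207), and its log2 fold change was -0.09 ± 0.12 in the low-glucose-tolerant line (edgeR adjusted p = 0.535).

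KRT10, the type I keratin of suprabasal epidermis, had 13.6, 11.9 and 14.7 CPM in CoCl2-tolerant, 22.7, 17.4 and 26.5 CPM in low-glucose-tolerant, and 8.06, 9.20 and 9.59 CPM in control libraries. The 3 groups did not overlap, with control lowest and the low-glucose-tolerant line highest. The rise was 0.58 ± 0.16 on the log2 scale in the CoCl2-tolerant line (edgeR adjusted p = 0.0104, or 0.0579 without control replicate 1) and 1.31 ± 0.16 in the low-glucose-tolerant line (KRT10 edgeR adjusted p = 3.75e-06). KRT15, a type I keratin of basal keratinocytes and hair follicle stem cells that lies 1.1 kb from KRT19, had 8.71, 7.28 and 7.42 CPM in CoCl2-tolerant, 7.68, 6.44 and 9.52 CPM in low-glucose-tolerant, and 4.35, 4.53 and 4.48 CPM in control libraries. Like KRT19 it was higher in all 6 libraries of the tolerant lines, which overlapped. KRT15 rose by 0.81 ± 0.16 (edgeR adjusted p = 0.00132) in the CoCl2-tolerant and 0.82 ± 0.16 (edgeR adjusted p = 3.14e-04) in the low-glucose-tolerant line, on the log2 scale.

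KRT4, a type II keratin of stratified mucosa such as the oesophagus, had 0.602, 0.245 and 0.565 CPM in CoCl2-tolerant, 0.238, 0.137 and 0.0362 CPM in low-glucose-tolerant, and 3.93, 3.06 and 3.97 CPM in control libraries. Both tolerant lines lay well below control in every library, although their own values rest on few reads. KRT4 fell by 2.96 on the log2 scale in the CoCl2-tolerant line (SE 0.32, edgeR adjusted p = 7.67e-06). In the low-glucose-tolerant line it had 12 counts against 350 in control, a depth-scaled ratio of 0.0383 (95% interval 0.0196 to 0.0677; such intervals are exact binomial and cover counting error only). KRT79, a type II keratin of hair follicle and sebaceous ducts, had 49 counts in CoCl2-tolerant, 7 in low-glucose-tolerant and 99 in control libraries, and fell by 3.60 on the log2 scale in the low-glucose-tolerant line (edgeR adjusted p = 4.54e-06). In the CoCl2-tolerant line its log2 fold change was -0.77 ± 0.31 (edgeR adjusted p = 0.0648, or 0.0435 without CoCl2-tolerant replicate 1).

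KRT2, a type II keratin of the upper epidermis, had 2.13, 1.12 and 1.48 CPM in CoCl2-tolerant, 0.306, 0.171 and 0.253 CPM in low-glucose-tolerant, and 0.487, 0.470 and 0.318 CPM in control libraries. It is the type II keratin that rose in the CoCl2-tolerant line, by 1.87 ± 0.32 on the log2 scale (edgeR adjusted p = 4.66e-04). The low-glucose-tolerant libraries all lay below control without passing the test (log2 fold change -0.80 ± 0.42, edgeR adjusted p = 0.103). KRT3, a corneal type II keratin, had 37 counts in CoCl2-tolerant, 0 in low-glucose-tolerant and 30 in control libraries. With the low-glucose-tolerant group set at a floor of 3 counts, KRT3 was 8.96-fold lower there than in control libraries. The 95% interval of the depth-scaled ratio, which covers counting error only, reached up to 0.146. KRT222 had 0.602, 1.33 and 1.10 CPM in CoCl2-tolerant, 2.31, 0.959 and 0.868 CPM in low-glucose-tolerant, and 1.17, 1.32 and 1.46 CPM in control libraries, and it passed neither test.

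Among the hair keratins, 5 of 18 passed the filter, all at low levels. In the CoCl2-tolerant line 2 rose and 2 fell, against 17.9% and 18.2% of all genes. In the low-glucose-tolerant line 4 rose and 1 fell, against 34.6% and 34.6% of all genes. KRT32, a type I keratin of the hair cuticle, had 2.41, 1.54 and 1.62 CPM in CoCl2-tolerant, 2.41, 1.51 and 2.90 CPM in low-glucose-tolerant, and 0.357, 0.323 and 0.540 CPM in control libraries. KRT34, a type I hair keratin of the cortex, had 1.37, 1.23 and 1.55 CPM in CoCl2-tolerant, 2.35, 2.30 and 2.57 CPM in low-glucose-tolerant, and 0.325, 0.265 and 0.286 CPM in control libraries. For both genes every library of the tolerant lines lay above every control library. KRT32 rose by 2.18 ± 0.33 in the CoCl2-tolerant line (edgeR adjusted p = 1.82e-04) and 2.47 ± 0.32 in the low-glucose-tolerant line (edgeR adjusted p = 9.32e-06) on the log2 scale. KRT34 rose by 2.23 ± 0.26 (edgeR adjusted p = 1.67e-05) and 3.03 ± 0.24 (edgeR adjusted p = 6.87e-08) in those lines. KRT33B, a close relative of KRT34, had 22 counts in CoCl2-tolerant, 56 in low-glucose-tolerant and 15 in control libraries, a ratio to control of 4.17 (2.32 to 7.93) in the low-glucose-tolerant line (edgeR adjusted p = 8.75e-04). KRT33B is uncertain, since 27.7% of its 50-base stretches occur in other keratins. It also met the filter through the low-glucose-tolerant libraries, where it is high.

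The type II hair keratins KRT81 and KRT86 both fell in the CoCl2-tolerant line, and in the low-glucose-tolerant line KRT81 fell and KRT86 rose. KRT81 had 2.25, 2.35 and 1.34 CPM in CoCl2-tolerant, 3.23, 2.88 and 5.21 CPM in low-glucose-tolerant, and 10.2, 10.8 and 11.3 CPM in control libraries. KRT86 had 0.602, 0.665 and 0.742 CPM in CoCl2-tolerant, 3.70, 3.39 and 4.78 CPM in low-glucose-tolerant, and 2.11, 2.88 and 2.38 CPM in control libraries. Control was highest for KRT81, the low-glucose-tolerant line for KRT86, and neither gene had overlapping groups. KRT81 fell by 2.45 (SE 0.23, edgeR adjusted p = 2.47e-06) in the CoCl2-tolerant line and by 1.52 (SE 0.21, edgeR adjusted p = 1.96e-05) in the low-glucose-tolerant line, on the log2 scale. KRT86 fell by 1.87 in the CoCl2-tolerant line (SE 0.23, edgeR adjusted p = 3.36e-05) and rose by 0.68 ± 0.19 in the low-glucose-tolerant line (edgeR adjusted p = 0.00498). These 2 genes are uncertain as single genes, since 44.6% of the 50-base stretches of KRT81 also occur in other keratin genes and pseudogenes, most of them in KRT86, and their annotated loci overlap on opposite strands.

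**Figure D3:**
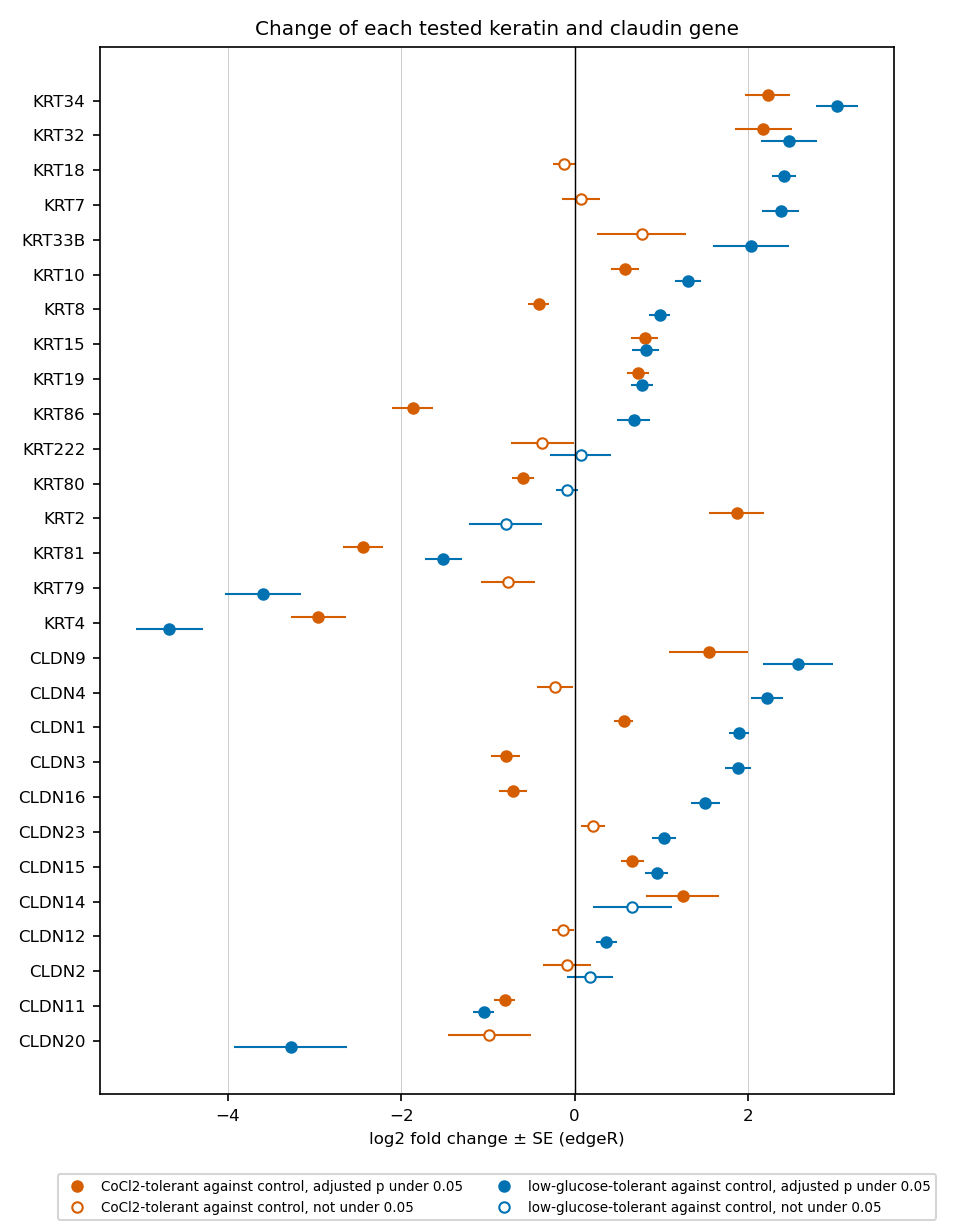
Log2 fold change ± SE from edgeR for 28 of the 30 tested genes, keratins above and claudins below, against control in the CoCl2-tolerant (orange) and low-glucose-tolerant (blue) lines, with filled points at an adjusted p under 0.05. KRT3 and CLDN7 are not drawn because a group had 0 to 2 counts. KRT18, KRT7, CLDN4 and CLDN23 carry filled blue points right of 0 beside open orange points, and KRT8, KRT86, CLDN3 and CLDN16 carry filled points on both sides of 0.

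Of the 13 claudins tested, 4 rose and 4 fell in the CoCl2-tolerant line, and 9 rose and 2 fell in the low-glucose-tolerant line. CLDN7 and CLDN9 met the filter through the low-glucose-tolerant libraries, where they are high (59 and 71 counts, against 24 and 13 in control). Their rise in that line is therefore no independent support for the count. Over all genes tested, 17.9% rose and 18.2% fell in the CoCl2-tolerant line, and 34.6% rose and 34.6% fell in the low-glucose-tolerant line. Between the lines 1 claudin was higher and 8 were lower in the CoCl2-tolerant line, against 31.9% and 32.0% of all genes. The summed claudin level per kilobase was 146 ± 13.04 CPM in CoCl2-tolerant, 387 ± 46.8 in low-glucose-tolerant and 145 ± 1.70 in control libraries. CLDN1, a sealing claudin needed for the skin barrier (ENSG00000163347, chr3:190305701-190322475), had 256, 305 and 279 CPM in CoCl2-tolerant, 779.6, 694 and 638 CPM in low-glucose-tolerant, and 190.1, 184 and 192 CPM in control libraries. The groups did not overlap, and control was lowest. CLDN1 rose by 0.57 ± 0.11 on the log2 scale in the CoCl2-tolerant line (edgeR adjusted p = 0.00117) and by 1.90 ± 0.11 in the low-glucose-tolerant line (edgeR adjusted p = 3.03e-09). It held 54.9 ± 0.323% of the claudin total per kilobase in CoCl2-tolerant, 52.3 ± 0.982% in low-glucose-tolerant and 37.5 ± 0.425% in control libraries.

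CLDN16, the claudin of magnesium uptake in the kidney (ENSG00000113946, chr3:190322541-190412143), had 65.6, 99.1 and 95.2 CPM in CoCl2-tolerant, 496, 391 and 325 CPM in low-glucose-tolerant, and 145, 142 and 140.1 CPM in control libraries. The low-glucose-tolerant libraries were highest and the CoCl2-tolerant libraries lowest, with no overlap. CLDN16 fell by 0.71 on the log2 scale in the CoCl2-tolerant line (SE 0.16, edgeR adjusted p = 0.00399) and rose by 1.51 ± 0.17 in the low-glucose-tolerant line (edgeR adjusted p = 1.72e-06). CoCl2-tolerant replicate 1 was lowest, and without it CLDN16 fell by 0.54 in that line (CLDN16 edgeR adjusted p = 0.0149). The annotated ends of CLDN1 and CLDN16 are 65 bases apart and the genes point away from each other. The CLDN16 start shown above lies inside its annotated gene, 291 bases from that of its principal transcript. That start is therefore much farther from the CLDN1 start than the 65 bases. In the CoCl2-tolerant line CLDN1 rose and CLDN16 fell. Per kilobase CLDN1 was 3.67, 2.90 and 2.76 times CLDN16 in CoCl2-tolerant, 1.48, 1.67 and 1.85 times in low-glucose-tolerant, and 1.24, 1.22 and 1.29 times in control libraries. Within 500 kb of them only 2 other protein-coding genes were tested, with a median log2 fold change of 0.43 in the low-glucose-tolerant line, where 1 rose and 1 fell.

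CLDN3 and CLDN4, sealing claudins that also serve as receptors of Clostridium perfringens enterotoxin, have annotated ends 29.3 kb apart on chromosome 7. The CLDN4 start shown above lies inside its annotated gene and so farther from CLDN3 than that. CLDN3 (ENSG00000165215, chr7:73768997-73770270) had 2.93, 2.66 and 2.40 CPM in CoCl2-tolerant, 15.7, 15.0 and 20.5 CPM in low-glucose-tolerant, and 4.39, 4.50 and 4.95 CPM in control libraries. CLDN4 (ENSG00000189143, chr7:73799542-73832693) had 1.89, 2.31 and 1.45 CPM in CoCl2-tolerant, 8.94, 9.87 and 12.2 CPM in low-glucose-tolerant, and 1.92, 2.47 and 2.22 CPM in control libraries. Both were highest in every low-glucose-tolerant library. CLDN3 was lowest in every CoCl2-tolerant library, while CLDN4 overlapped with control there. In the low-glucose-tolerant line CLDN3 rose by 1.89 ± 0.15 (edgeR adjusted p = 5.87e-08) and CLDN4 by 2.22 ± 0.19 (edgeR adjusted p = 1.03e-07) on the log2 scale. In the CoCl2-tolerant line CLDN3 fell by 0.79 (SE 0.17, edgeR adjusted p = 0.00212), and the log2 fold change of CLDN4 was -0.23 ± 0.21 (edgeR adjusted p = 0.417).

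Other genes around this pair moved with it in the low-glucose-tolerant line. Of 15 other protein-coding genes tested within 500 kb of CLDN3, 13 rose and none fell in that line, with a median log2 fold change of 1.25. Of all genes tested, 34.6% rose and 34.6% fell in that line, and 17.9% rose and 18.2% fell in the CoCl2-tolerant line. In the low-glucose-tolerant line the median over 642 protein-coding genes of chromosome 7 was 0.67, and over all 13652 protein-coding genes tested it was 0.081. In the CoCl2-tolerant line 7 of those 15 genes rose and 2 fell, with a median of 0.45, while CLDN3 itself fell. CLDN15 on chromosome 7 also had neighbours that rose in the low-glucose-tolerant line (14 of 17 higher and 2 lower, median 1.26), as did CLDN9 on chromosome 16 (22 of 31 higher and 6 lower, median 0.79), where the median of 641 genes was 0.62. The part of these shifts of whole neighbourhoods in the claudin results was not tested. The median was 0.20 over 756 genes of chromosome 12 and 0.16 over 844 genes of chromosome 17, which hold the keratin clusters, and -0.003 over 762 genes of chromosome 3.

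**Figure D4:**
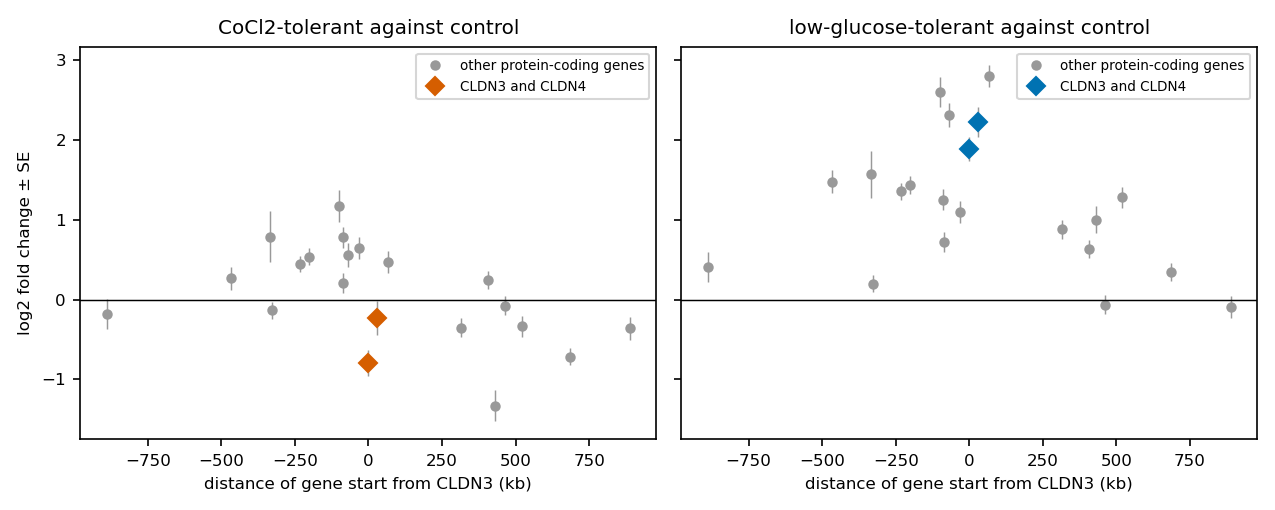
Log2 fold change ± SE of protein-coding genes against the distance of their annotated start coordinate from CLDN3 in kilobases, in the CoCl2-tolerant (left) and low-glucose-tolerant (right) lines. In the right panel CLDN3 and CLDN4 (diamonds, 1.89 and 2.22) stand among neighbours that mostly lie above 0, and in the left panel CLDN3 (-0.79) lies below 0, where the 21 genes span -1.33 to 1.17.

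CLDN11, the claudin of myelin and of Sertoli cell junctions, fell in both lines. Its libraries had 21.99, 25.1 and 22.5 CPM in CoCl2-tolerant, 20.97, 16.6 and 21.2 CPM in low-glucose-tolerant, and 40.1, 39.2 and 42.3 CPM in control libraries, and control stood above all 6 others. The log2 fold change of CLDN11 was -0.80 ± 0.12 (edgeR adjusted p = 1.59e-04) in the CoCl2-tolerant and -1.05 ± 0.12 (edgeR adjusted p = 2.76e-06) in the low-glucose-tolerant line. CLDN15, a cation pore of the gut, had 14.5, 12.7 and 12.9 CPM in CoCl2-tolerant, 14.1, 18.2 and 16.3 CPM in low-glucose-tolerant, and 8.81, 8.11 and 8.29 CPM in control libraries. All libraries of the tolerant lines were above control, and CLDN15 rose by 0.67 ± 0.13 (edgeR adjusted p = 0.00116) in the CoCl2-tolerant and 0.95 ± 0.13 (edgeR adjusted p = 1.29e-05) in the low-glucose-tolerant line. CLDN2, a cation and water pore of leaky epithelia, passed no test, with 2.61 ± 0.756 CPM in CoCl2-tolerant, 3.14 ± 1.17 in low-glucose-tolerant and 2.77 ± 0.488 in control libraries. Other annotated genes share 18.3% of the exon bases of CLDN11, 10.0% of those of CLDN2 and 8.13% of those of CLDN12, so part of these counts is uncertain.

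CLDN23, found in differentiated gut epithelium, had 7.46, 7.04 and 6.11 CPM in CoCl2-tolerant, 12.2, 10.7 and 13.5 CPM in low-glucose-tolerant, and 5.88, 6.32 and 5.59 CPM in control libraries. Its low-glucose-tolerant libraries stood above the rest (log2 fold change 1.03 ± 0.14, edgeR adjusted p = 1.02e-05), and the CoCl2-tolerant libraries overlapped with control (0.21 ± 0.14, edgeR adjusted p = 0.258). CLDN12, which lacks the tail motif that binds ZO proteins, had 46.0, 49.9 and 46.3 CPM in CoCl2-tolerant, 75.7, 71.8 and 53.3 CPM in low-glucose-tolerant, and 51.0, 52.4 and 52.2 CPM in control libraries. Low-glucose-tolerant replicate 3 stood only just above control. The log2 fold change of CLDN12 was 0.37 ± 0.13 there (edgeR adjusted p = 0.0177), and the call is lost when scaling by library totals (0.0913), under a filter of 5 CPM (0.0647), without control replicate 1 (0.0543) or without low-glucose-tolerant replicate 1 (CLDN12 adjusted p = 0.0710, edgeR).

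The remaining claudins were near the detection limit. CLDN7, a claudin of the colonic basolateral membrane, had 2 counts in CoCl2-tolerant, 59 in low-glucose-tolerant and 24 in control libraries. Its depth-scaled ratio to control was 0.0981 (95% interval 0.0112 to 0.395) in the CoCl2-tolerant and 2.74 (1.68 to 4.61) in the low-glucose-tolerant line (edgeR adjusted p = 0.0105 and 0.00993). The low-glucose-tolerant call of CLDN7 is lost without control replicate 2 (0.0525) or low-glucose-tolerant replicate 3 (0.0568). CLDN9, a claudin of the inner ear, had 33, 71 and 13 counts in CoCl2-tolerant, low-glucose-tolerant and control libraries, with ratios to control of 2.99 (1.53 to 6.19) in the CoCl2-tolerant and 6.10 (3.35 to 12.0) in the low-glucose-tolerant line. Its call in the CoCl2-tolerant line (edgeR adjusted p = 0.0168) is lost without control replicate 1, control replicate 2 or CoCl2-tolerant replicate 3 (CLDN9 adjusted p 0.0649 to 0.0729, edgeR). CLDN14, another inner ear claudin, had 43, 30 and 21 counts in the same order, and its call in the CoCl2-tolerant line (edgeR adjusted p = 0.0335) is lost under DESeq2 (0.0682) and without any 1 control library, CoCl2-tolerant replicate 2 or replicate 3 (CLDN14 adjusted p 0.0681 to 0.134, edgeR). CLDN20 had 20, 4 and 47 counts in the same order, a ratio to control of 0.0950 (0.0249 to 0.260) in the low-glucose-tolerant line. Of the genes below the filter, 9 had at least 10 counts in all: CLDN18 (60), KRT78 (55), CLDN6 (48), KRT83 (37), CLDN5 (30), KRT17 (18), KRT12 (15), KRT13 (15) and KRT23 (12).

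Set directly against each other, the lines differed at 22 of the 30 genes, 5 higher and 17 lower in the CoCl2-tolerant line, where 63.9% of all genes were called, 31.9% higher and 32.0% lower. The median log2 fold change of the 30 genes was -0.62 (0.006 over all genes). With all genes kept, it was -0.042 over the 63 members (0.038 over all genes). KRT18 was 5.80-fold, CLDN3 6.42-fold, CLDN4 5.48-fold and KRT7 4.95-fold lower in the CoCl2-tolerant than in the low-glucose-tolerant line (edgeR adjusted p at most 4.85e-07 for KRT7). KRT2, KRT4 and KRT79 were among the 5 that were higher in the CoCl2-tolerant line, by 2.66, 1.72 and 2.83 on the log2 scale, and KRT3 and CLDN20 were the others. KRT19 (log2 fold change -0.05 ± 0.13, edgeR adjusted p = 0.748) and KRT15 (-0.01 ± 0.15, edgeR adjusted p = 0.940) did not pass between the lines.

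Genes whose products work with claudins were set beside them. Of 21 tight junction partner genes tested, 1 rose and 16 fell in the CoCl2-tolerant line (median log2 fold change -0.62), and 5 rose and 12 fell in the low-glucose-tolerant line (median -0.71), where 9 of 13 claudins rose. Over all genes tested, 17.9% rose and 18.2% fell in the CoCl2-tolerant line, and 34.6% rose and 34.6% fell in the low-glucose-tolerant line. TJP1, the ZO-1 scaffold that claudins bind, had 302, 371 and 313 CPM in CoCl2-tolerant, 198, 308 and 181 CPM in low-glucose-tolerant, and 586, 542 and 573 CPM in control libraries. Both lines lay below control in every library, with log2 fold changes of -0.79 ± 0.17 in the CoCl2-tolerant (edgeR adjusted p = 0.00224) and -1.31 ± 0.17 in the low-glucose-tolerant line (TJP1 edgeR adjusted p = 7.81e-06). CGN, the scaffold cingulin, was at 3.67 ± 0.528 CPM in CoCl2-tolerant, 2.76 ± 1.08 in low-glucose-tolerant and 11.9 ± 0.369 in control libraries, and its relative CGNL1 at 97.7 ± 5.17, 46.4 ± 14.5 and 164 ± 2.83 CPM in that order. OCLN, occludin, fell by 0.79 on the log2 scale in the CoCl2-tolerant line (edgeR adjusted p = 1.28e-04) and had a log2 fold change of 0.03 ± 0.11 in the low-glucose-tolerant line (OCLN edgeR adjusted p = 0.854). JAM2, a junctional adhesion molecule, was the partner that rose in the CoCl2-tolerant line, with 8.38 ± 0.452 CPM there, 1.05 ± 0.164 in low-glucose-tolerant and 2.27 ± 0.254 in control libraries. MARVELD2, the tricellular junction protein tricellulin, had log2 fold changes of -0.76 ± 0.13 in the CoCl2-tolerant and 0.77 ± 0.13 in the low-glucose-tolerant line. The scaffold MAGI1 fell in both (-1.28 ± 0.15 and -0.97 ± 0.14), as did ILDR2, a tricellular junction protein (-1.06 ± 0.16 and -1.65 ± 0.17).

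Desmosomes anchor keratin filaments at the cell surface. Of 13 desmosome and plakin genes tested, 3 rose and 7 fell in the CoCl2-tolerant line, against 17.9% and 18.2% of all genes. In the low-glucose-tolerant line 5 rose and 5 fell, near the shares of all genes (34.6% and 34.6%). DSP, the desmoplakin that binds keratins directly, was at 37.4 ± 2.62 CPM in CoCl2-tolerant, 62.5 ± 17.6 in low-glucose-tolerant and 102 ± 1.58 in control libraries, and JUP, plakoglobin, at 68.8 ± 4.86, 104 ± 12.1 and 238 ± 11.6 CPM in that order. PPL, periplakin, fell by 1.79 on the log2 scale in the CoCl2-tolerant line (edgeR adjusted p = 5.82e-07), and PKP3, plakophilin 3, rose by 0.77 ± 0.12 in the CoCl2-tolerant (edgeR adjusted p = 1.49e-04) and 0.98 ± 0.12 in the low-glucose-tolerant line (PKP3 edgeR adjusted p = 3.24e-06). The desmocollin DSC2 fell by 1.73 on the log2 scale in the low-glucose-tolerant line (DSC2 edgeR adjusted p = 6.29e-08), and DSC3 was lower in the CoCl2-tolerant line (4.43 ± 1.20 CPM) than in the low-glucose-tolerant line (9.62 ± 2.02 CPM).

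Vimentin, neurofilaments and lamins are intermediate filaments of other kinds. Of 13 other intermediate filament genes, 6 rose and 4 fell in the CoCl2-tolerant line, against 17.9% and 18.2% of all genes. In the low-glucose-tolerant line 5 rose and 8 fell, against 34.6% and 34.6% of all genes. VIM, the mesenchymal filament vimentin, had 1846, 1987 and 2069 CPM in CoCl2-tolerant, 2703, 2204 and 2948 CPM in low-glucose-tolerant, and 1240.0, 1111 and 1185 CPM in control libraries. Like KRT19, VIM rose in both lines, by 0.74 ± 0.12 in the CoCl2-tolerant (edgeR adjusted p = 2.94e-04) and 1.15 ± 0.12 in the low-glucose-tolerant line (edgeR adjusted p = 9.82e-07). NEFL, a neuronal filament light chain, rose in the CoCl2-tolerant line (355 ± 4.66 CPM) and fell in the low-glucose-tolerant line (72.01 ± 2.81 CPM) against control (162 ± 7.78 CPM). GFAP, the filament of astrocytes, rose in the low-glucose-tolerant line by 2.14 ± 0.14 on the log2 scale (edgeR adjusted p = 9.86e-09), and BFSP1, the lens filament filensin, by 2.26 ± 0.13 (BFSP1 edgeR adjusted p = 2.87e-09). NES, the progenitor filament nestin, fell by 2.23 in the CoCl2-tolerant line (NES edgeR adjusted p = 4.90e-08), and LMNB1, a nuclear lamin, fell by 2.88 in the low-glucose-tolerant line (LMNB1 edgeR adjusted p = 3.76e-11). Genes on the opposite strand share 18.4% of the exon bases of GFAP, 12.4% of VIM and 11.3% of NEFL. Since the use of strand is not given, part of these counts is uncertain.

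Of 9 epithelial transcription factors tested, 2 rose and 3 fell in the CoCl2-tolerant and 4 rose and 3 fell in the low-glucose-tolerant line. For these and the repressors below, the shares of all genes were 17.9% higher and 18.2% lower in the CoCl2-tolerant line. In the low-glucose-tolerant line they were 34.6% higher and 34.6% lower. ELF3, an epithelial ETS factor, was at 13.0 ± 0.199 CPM in CoCl2-tolerant, 6.59 ± 0.921 in low-glucose-tolerant and 56.2 ± 1.11 in control libraries, and it fell by 2.11 in the CoCl2-tolerant and by 3.09 in the low-glucose-tolerant line on the log2 scale (edgeR adjusted p at most 1.90e-08). Other annotated genes share 18.5% of the ELF3 exon bases, so part of its counts is uncertain. KLF4, a factor of differentiating gut epithelium, rose by 0.59 ± 0.12 in the CoCl2-tolerant and 1.94 ± 0.12 in the low-glucose-tolerant line (KLF4 edgeR adjusted p at most 0.00183), and GRHL3, a grainyhead-like factor, rose by 3.63 ± 0.29 in the low-glucose-tolerant line (GRHL3 edgeR adjusted p = 6.17e-08). HNF4G, a gut nuclear receptor, fell by 0.57 in the CoCl2-tolerant line (HNF4G edgeR adjusted p = 0.00667). CDH1, the adherens junction protein E-cadherin, was at 1.41 ± 0.133 CPM in CoCl2-tolerant, 8.14 ± 1.48 in low-glucose-tolerant and 17.8 ± 0.465 in control libraries. Of the 5 tested repressors of epithelial genes, 1 rose and 1 fell in the CoCl2-tolerant and 1 rose and 3 fell in the low-glucose-tolerant line. SNAI2, a repressor that binds E-boxes, rose by 0.87 ± 0.12 in the CoCl2-tolerant line (SNAI2 edgeR adjusted p = 7.55e-05), while in the low-glucose-tolerant line TWIST2 rose by 1.09 ± 0.15, ZEB1 fell by 0.81 and ZEB2 fell by 0.66. Its relative SNAI1, at 4.34 ± 0.441 CPM in control libraries, fell in both lines. The fall was 1.08 in the CoCl2-tolerant (SNAI1 edgeR adjusted p = 2.67e-04) and 1.80 in the low-glucose-tolerant line (SNAI1 edgeR adjusted p = 7.08e-07).

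Markers of other cell types moved too. COL1A1, type I collagen of mesenchymal cells, was at 250.1 ± 17.2 CPM in CoCl2-tolerant, 21.5 ± 1.85 in low-glucose-tolerant and 1855 ± 27.4 in control libraries, and 2 of 9 tested mesenchymal markers rose and 3 fell in the CoCl2-tolerant line, with 1 higher and 3 lower in the low-glucose-tolerant line. THY1, a surface protein of fibroblasts, was at 445 ± 38.6 CPM in CoCl2-tolerant, 147 ± 15.0 in low-glucose-tolerant and 642 ± 27.6 in control libraries, and on the log2 scale it fell by 0.53 in the CoCl2-tolerant line (THY1 edgeR adjusted p = 0.00207) and fell by 2.13 in the low-glucose-tolerant line (THY1 edgeR adjusted p = 1.21e-09). PDGFRB, a growth factor receptor of mesenchymal cells, fell by 1.80 in the CoCl2-tolerant line and had a log2 fold change of -0.06 ± 0.17 in the low-glucose-tolerant line (PDGFRB edgeR adjusted p = 0.752). FN1 was at 12090 ± 1595 CPM in CoCl2-tolerant, 4267 ± 1575 in low-glucose-tolerant and 8000.0 ± 99.5 CPM in control libraries. The 8 squamous and basal markers in the files summed to 9.29 to 10.8 CPM in CoCl2-tolerant, 16.1 to 19.8 in low-glucose-tolerant and 7.53 to 8.86 in control libraries, with KRT15 among the 3 that were tested. Of these 3, 1 rose and 1 fell in the CoCl2-tolerant and 3 rose in the low-glucose-tolerant line. Beside both marker lists, 17.9% of all genes rose and 18.2% fell in the CoCl2-tolerant line, and 34.6% rose and 34.6% fell in the low-glucose-tolerant line. In the low-glucose-tolerant line SFN, the stratifin of squamous epithelia, rose by 1.40 ± 0.20 on the log2 scale (SFN edgeR adjusted p = 1.91e-05), and COL17A1, a hemidesmosomal collagen of basal cells, by 1.51 ± 0.24 (COL17A1 edgeR adjusted p = 6.51e-05). The basal factor TP63 had group means under 0.1 CPM. The part of these markers in the keratin and claudin results was not tested.

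**Figure D5:**
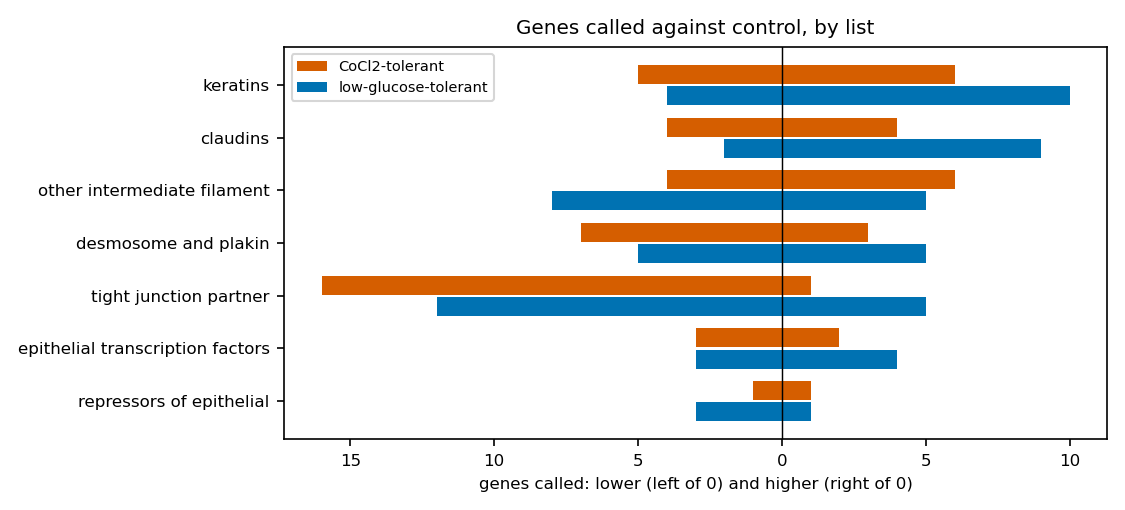
Number of genes called lower (left) and higher (right) than control by edgeR in the CoCl2-tolerant (orange) and low-glucose-tolerant (blue) lines, for keratins, claudins and 5 lists of related genes. Claudins show 9 higher and 2 lower in the low-glucose-tolerant line, and tight junction partner genes show 5 higher and 12 lower. Not drawn are the shares over all genes, 34.6% higher and 34.6% lower in that line and 17.9% and 18.2% in the CoCl2-tolerant line.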

How the data were processed

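The authors' libraries were made from TRIzol-extracted RNA by mRNA selection and run on an Illumina NovaSeq, per the labels' protocols. The deposited files hold raw read counts per gene, made by the authors with featureCounts on build GRCh38, per the submitters' processing notes, which also name DESeq2. For the aligner, the annotation and the use of strand, the answer is not given in the sources used here. Gene IDs were named from a table of gene names (35938 of 36018) or from GENCODE 29 (76 more), which also gave gene types, positions, transcript lengths and overlaps for 34888 genes. GENCODE 29 lists 79 protein-coding genes with a keratin or claudin symbol, and those outside the 63 were not analysed here.

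Counts were tested in R 4.3.3 with edgeR 4.0.16, using filterByExpr by group (17902 genes kept), TMM scaling (factors 0.922 to 1.04) and the quasi-likelihood F test on all 9 libraries with 1 mean per group. Calls were made at a Benjamini-Hochberg adjusted p under 0.05 over all genes tested. CPM use the effective library size, and levels per kilobase the median length of the principal transcripts. Intervals for genes with few counts are exact, at 95%, and cover counting error only. The test was checked on simulated data with 1 common spread for all genes and groups, unlike the real libraries. Of the calls made there, 5.39 to 7.30% were false. Changes of 1.5-fold were recovered in 40.3 to 64.2% of cases, and changes of 2-fold in 95.5 to 98.5%. The alternatives were DESeq2 1.42.0 as the test, its size factors in edgeR, library totals as scaling, all genes kept, a minimum of 5 CPM in 3 libraries, fits to the 2 groups compared, a replicate block, and each library left out. Every member that passed the filter is named, and members under it with at least 10 counts. List genes are named when among the 3 largest called changes of a list and comparison with the higher group at 5 CPM or more, or when among 8 genes chosen by name, of which 1 was not analysed here. LUM, FAP, TP63, COL17A1 and SNAI1 were added after their values were seen. Members and lists were chosen with earlier results of these data known. Figures were drawn with Python 3.11.15 and matplotlib 3.10.9. A line tolerant to brefeldin A was not analysed here.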

Additional observations from a re-analysis of the deposited data

How the results depend on the processing

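The minimum of 5 CPM in 3 libraries left 16 keratins and claudins to test and was the one alternative that moved their count of calls by over 1.5 times: 11 changed in the CoCl2-tolerant line against 19, 14 in the low-glucose-tolerant line against 25, and 13 between the lines against 22. Leaving out single libraries gave 15 to 20 in the CoCl2-tolerant line, 24 to 26 in the low-glucose-tolerant line and 19 to 24 between the lines. The calls over all genes in the CoCl2-tolerant line moved too, from 4463 to 7965 with single libraries left out, against 6459. In the fit of the 2 groups they were 8552 of 17314, beside 16 of 25 members. Scaling by library totals moved the median log2 fold change of all genes to -0.108 in the low-glucose-tolerant line, with 5521 genes higher and 6780 lower against 6194 and 6200, and to 0.098 between the lines, with 6261 higher and 5025 lower against 5707 and 5733. CLDN20 gained a call in the CoCl2-tolerant line without CoCl2-tolerant replicate 2 (adjusted p = 0.0391, edgeR), and lost the one between the lines. Calls of BFSP1, DSC2, DSC3, FN1 and GRHL3 in the CoCl2-tolerant line are each lost under 3 to 6 alternatives. Genes under 1 CPM rest on few counts at this depth.

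Replicate numbers are numbers only. Residual correlations ran from -0.260 to 0.124 for pairs that share a number and from -0.242 to 0.205 for the rest. With a replicate block, 19 members changed in the CoCl2-tolerant line, 25 in the low-glucose-tolerant line and 22 between the lines.

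Some log2 fold changes near 0, none past the test's threshold, changed sign. Between the lines KRT15 was 0.080 and KRT19 0.046 by library totals, 0.069 and 0.034 under the 5 CPM minimum, and KRT15 was 0.0025 in the fit of the 2 groups. In the low-glucose-tolerant line KRT222 was -0.023, EPCAM -0.074 and OCLN -0.073 by library totals, EPCAM was -0.071 and OCLN -0.074 under the 5 CPM minimum, and SNAI2 was 0.018 with all genes kept. With single libraries left out, CLDN2 ranged from -0.27 to 0.14 and KRT7 from -0.17 to 0.23 in the CoCl2-tolerant line. In the low-glucose-tolerant line CLDN2 ranged from -0.14 to 0.40, KRT222 from -0.52 to 0.32, KRT80 from -0.22 to 0.036, EPCAM from -0.13 to 0.23, OCLN from -0.034 to 0.12, PDGFRB from -0.15 to 0.0081 and SNAI2 from -0.054 to 0.025. Between the lines CLDN2 ranged from -0.49 to 0.053, KRT15 from -0.15 to 0.13, KRT19 from -0.15 to 0.092 and KRT222 from -0.69 to 0.15. The cause of these shifts was not tested.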
